A study of Mus musculus with 1 sample.

Results

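The genes described here are 9 members of the Notch pathway in mouse gastric organoid cells: the receptors Notch1, Notch2 and Notch3, the ligands Jag1, Jag2 and Dll1, and the target genes Hes1, Hey1 and Nrarp. They were taken by gene symbol from the 32285 genes of the deposited matrix, and all 9 were found in it. Organoids are three-dimensional cultures of epithelial cells. The sample was 1 library, with the genotype wild type, the treatment none and the cell type epithelial cell in its labels, harvested at day 7 after seeding and dissociated for 30 min in trypsin-EDTA (0.05%). The labels name neither the strain, age or number of the mice nor the number of cultures. Other organoid genotypes in the series' text, KP and EKP, were not analysed here. With 1 library there is no replicate, so no difference was tested, and every interval below is a 95% interval for counting error only.

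Notch receptors are single-pass membrane proteins that bind ligands of the Jagged and Delta-like families on a neighbouring cell. Binding lets an ADAM protease and then the gamma-secretase complex cut the receptor, and the freed intracellular part enters the nucleus, joins the DNA-binding protein RBPJ and switches on genes such as those of the Hes and Hey families. In many tissues the pathway sets neighbouring cells apart, with ligand high in one cell and target genes high in the next, and in the stomach it is known for keeping epithelial progenitors from differentiating.

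The library held 1991 barcodes, of which 1892 were kept because they showed 500 genes or more and had no more than 20% mitochondrially encoded RNA among their unique molecular identifiers (UMIs). A UMI tags 1 captured RNA molecule. Depth ran from 890 to 47183 gene UMIs per kept cell, with the median at 8512.5. The label epithelial cell was checked against its markers. The epithelial keratin gene Krt18 had a UMI in 99.6% of cells and the adhesion gene Epcam in 96.6%. Of 12 markers of fibroblasts, endothelium, leukocytes and smooth muscle, 5 had no UMI and the most widespread was seen in 5 cells (0.264%). Among gastric lineages, the pit cell gene Tff1 had a UMI in 54.7% of cells and the pit cell gene Muc5ac in 2.38%. Of the mucous neck cell genes, Tff2 was seen in 134 cells (7.08%) and Muc6 in 1. Of the other lineages, the chief cell gene Pgc was seen in 31 cells, the parietal cell gene Atp4a in 27, the tuft cell genes Dclk1 and Avil in 29 and 14, and the endocrine gene Ghrl in 3. The chief cell genes Cblif and Pga5, the parietal cell gene Atp4b, the endocrine gene Chga and the tuft cell gene Trpm5 had no UMI. No cell type known to lack the Notch genes was present, so the share of cells with a UMI from free RNA could not be read for them.

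The promoters of the most abundant ligand gene, Jag2, and of Nrarp, the target gene with a window in the RefSeq promoter table, are shown to place these genes on the genome. Each covers 250 bases before and 50 bases after the start of transcription, 5′ to 3′ on the gene's strand, in build GRCm38.p6. Capitals mark the E box CACGTG in the Nrarp window, chr2:25180508-25180807 (plus strand), and the GC box GGGCGG, on either strand, in the Jag2 window, chr12:112929446-112929745 (minus strand).
Nrarp promoter: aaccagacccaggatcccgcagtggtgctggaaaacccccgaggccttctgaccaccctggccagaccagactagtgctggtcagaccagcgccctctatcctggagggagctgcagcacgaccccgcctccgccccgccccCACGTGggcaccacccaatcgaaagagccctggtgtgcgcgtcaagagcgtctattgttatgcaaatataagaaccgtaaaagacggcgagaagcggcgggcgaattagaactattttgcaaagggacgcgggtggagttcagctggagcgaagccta
Jag2 promoter: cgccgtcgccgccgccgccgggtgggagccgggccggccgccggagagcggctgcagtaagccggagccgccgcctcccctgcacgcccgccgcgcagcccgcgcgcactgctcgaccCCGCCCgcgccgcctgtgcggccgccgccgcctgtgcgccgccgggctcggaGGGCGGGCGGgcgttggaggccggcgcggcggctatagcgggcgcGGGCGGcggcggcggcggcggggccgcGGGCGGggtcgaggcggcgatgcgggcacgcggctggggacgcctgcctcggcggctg
The GC content was 60% in the Nrarp window and 86% in the Jag2 window. The table held 8 windows for 7 of the 9 members, Notch1, Notch2, Notch3, Jag1, Jag2, Dll1 and Nrarp. The E box letters CACGTG, which read the same on both strands, were found in 1 of the 8 member windows and in 7.15% of all 32851 windows. The GC box letters GGGCGG were found in 5 of 8 and in 35.7% of all. The N box letters CACNAG, with N any base, were found in 5 of 8 and in 42.5% of all, and the RBPJ core letters TGGGAA in 0 of 8 and 25.6% of all. Both strands were searched, and matches of the GC box overlap in places.

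The 9 genes are all annotated as protein-coding in GENCODE M21, which uses GRCm38. The receptor genes are Notch1 on chromosome 2 (26457903 to 26516663, minus strand), Notch2 on chromosome 3 (98013527 to 98150361, plus strand) and Notch3 on chromosome 17 (32120820 to 32166852, minus strand). The ligand genes are Jag1 on chromosome 2 (137081456 to 137116644), Jag2 on chromosome 12 (112907819 to 112929776) and Dll1 on chromosome 17 (15367354 to 15376872), all on the minus strand. The target genes are Hes1 on chromosome 16 (30064384 to 30067796, plus strand), Hey1 on chromosome 3 (8663359 to 8667256, minus strand) and Nrarp on chromosome 2 (25180758 to 25183339, plus strand).

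Hes1 was far above every other member. The unit of level is CPM, or a gene's UMIs per 1000000 UMIs of all genes. A 3′ library yields UMIs from the ends of transcripts, so levels were compared between genes without division by gene length. Hes1, a transcriptional repressor and the classical Notch target, had 17198 UMIs, which is 855 CPM (842 to 868), and was seen in 92.1% of cells. It held 94.2% of the 18251 UMIs of all members, 16.3 times the other members together. The median cell had 777 CPM of Hes1, with quartiles at 407 and 1199 CPM, and the highest single count was 67 UMIs. Nrarp, which encodes an ankyrin repeat protein that feeds back on Notch signalling, had 223 UMIs or 11.1 CPM (9.68 to 12.6) in 10.7% of cells. Hey1, a repressor related to Hes1, had 0 UMIs in all 1991 barcodes, which allows a share of cells with a UMI of up to 0.159% when the limit is set at 3 of the 1892 kept cells.

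Among the ligand genes Jag2 led. It had 328 UMIs or 16.3 CPM (14.6 to 18.2), and was seen in 14.8% of cells. Jag1 had 73 UMIs, 3.63 CPM (2.84 to 4.56), in 3.75% of cells, and Dll1 had 69 UMIs, 3.43 CPM (2.67 to 4.34), in 3.33%. The ligands together reached 23.4 CPM and 383 cells (20.2%). Among the receptor genes, Notch2 had 154 UMIs, 7.65 CPM (6.49 to 8.96), in 7.45% of cells, and Notch3 had 151 UMIs, 7.51 CPM (6.36 to 8.80), in 7.35%. Notch1 was the lowest detected member, with 55 UMIs, 2.73 CPM (2.06 to 3.56), in 2.48% of cells. The receptors together reached 17.9 CPM and 301 cells (15.9%).

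The order of levels was therefore Hes1, Jag2, Nrarp, Notch2, Notch3, Jag1, Dll1, Notch1 and Hey1. Hes1 was 52.4 times Jag2 (interval 47.0 to 58.7). Jag2 was 1.47 times Nrarp (1.24 to 1.75), Nrarp 1.45 times Notch2 (1.17 to 1.79) and Notch3 2.07 times Jag1 (1.55 to 2.77). The ratios of Notch2 to Notch3 (1.02, 0.809 to 1.29), Jag1 to Dll1 (1.06, 0.751 to 1.49) and Dll1 to Notch1 (1.25, 0.868 to 1.82) had intervals that include 1, so these neighbours did not differ beyond counting error.

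**Figure D1:**
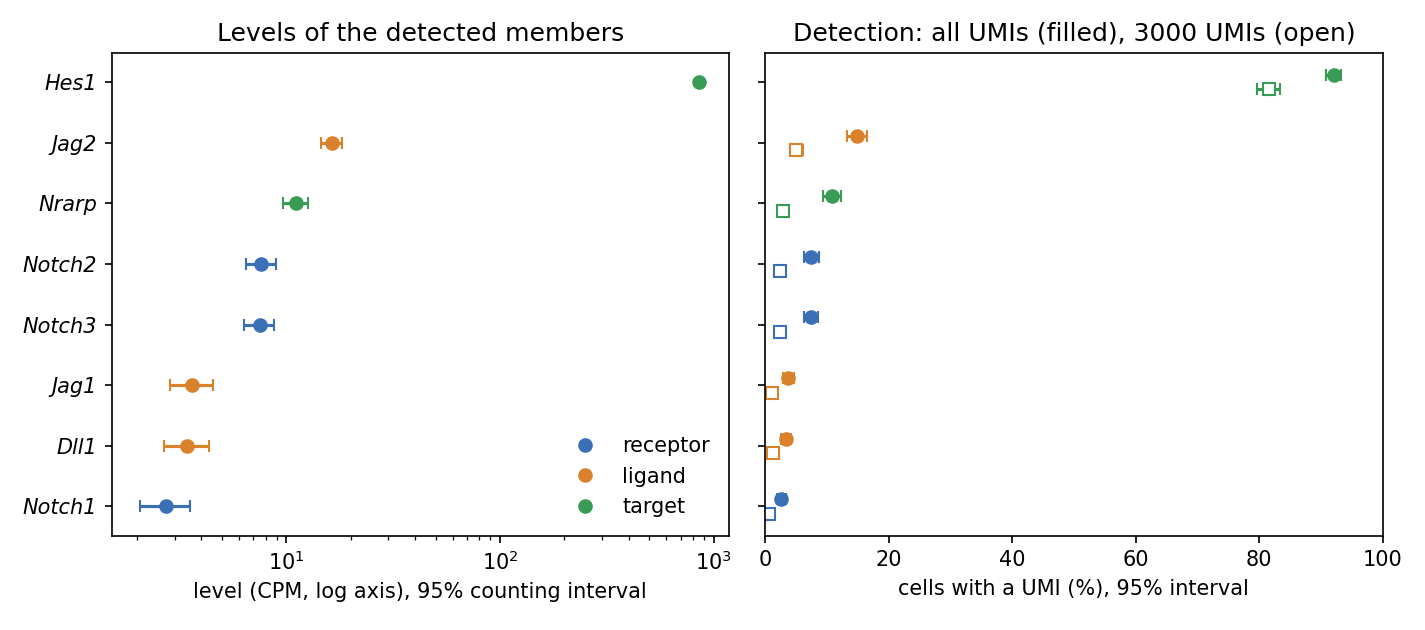
Level of each member in CPM on a log axis with exact Poisson intervals (left), and share of cells with a UMI before and after each cell was reduced to 3000 UMIs, with exact binomial intervals (right). Hes1 stands alone at 855 CPM and 92.1% of cells, and the next gene, Jag2, is at 16.3 CPM. Hey1, without a UMI, is not drawn.

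Detection of the low members followed the depth of the cells. Cells with a ligand UMI had a median of 12322 gene UMIs, against 7980 in cells without. When each cell was reduced at random to 3000 UMIs, which kept 1835 cells and left out 57, Hes1 was found in 81.6% of cells, Jag2 in 5.01%, Nrarp in 2.83%, Notch2 in 2.45%, Notch3 in 2.34%, Dll1 in 1.31%, Jag1 in 1.09% and Notch1 in 0.599%. If every cell had held each gene at the same share of its RNA, 292 cells would have shown Jag2, and 280 did. The same figure for Nrarp was 206 against 203 observed, and for Jag1 it was 71.1 against 71. Notch1 had the largest relative shortfall of the low members, with 47 cells against 53.9. A cell without a UMI of a low member is not shown to lack the transcript. Hes1 differed. Some 1871 cells would have shown it at a uniform level and 1743 did, and at 3000 UMIs the share without it was 18.4% against 7.70%. At equal depth its variance over cells was 1.90 times its mean, compared with 0.975 to 1.09 for the other detected members.

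Most cells showed a single member. Of the 1892 cells, 113 had no member UMI, 1104 (58.4%) had 1 member, 487 had 2, 149 had 3, 33 had 4 and 6 had 5. At the level of classes, 362 cells had both a ligand and a target UMI, 21 had a ligand only, 1388 a target only and 121 neither.

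Summed target levels were alike in cells with and without a ligand UMI. Hes1 was 854.6 CPM in the 383 cells with a UMI of any ligand and 854.9 CPM in the 1509 cells without, a ratio of 1.0 (0.966 to 1.03). Nrarp was 12.2 CPM against 10.7 CPM, a ratio of 1.14 (0.838 to 1.53). The summed targets were 866.8 against 865.6 CPM, a ratio of 1.0 (0.968 to 1.04). Hes1 held 17198 of their 17421 UMIs, so this ratio and the summed target ratios below follow Hes1. Of the 4 members outside the ligands with at least 100 UMIs, 0 lay beyond a 1.5-fold ratio in either direction, beside 1.87% of the 8652 genes compared. The interval of the summed target ratio does not reach a 1.5-fold difference, but the classes rest mostly on a single ligand UMI. Summed receptors were 21.1 against 16.7 CPM in the same classes, a ratio of 1.26 (1.003 to 1.59).

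The Hes1 level was also read for each ligand by itself. Hes1 was 856 CPM in Jag2-positive cells and 854.5 CPM in the rest, a ratio of 1.0 (0.965 to 1.04). It was 804 CPM against 858 CPM for Jag1 (ratio 0.937, 0.873 to 1.0) and 896 CPM against 853 CPM for Dll1 (ratio 1.05, 0.976 to 1.13). All 3 Hes1 ratios lay within 1.5-fold, a fold that 13.1% of all genes passed for Jag1, 2.69% for Jag2 and 15.3% for Dll1. Among the other members of at least 100 UMIs, Notch3 was past it in Jag1-positive cells, at 11.5 CPM against 7.29 CPM (ratio 1.58, 0.798 to 2.85). Jag2 was past it in Dll1-positive cells, at 24.0 CPM against 16.0 CPM (1.504, 0.917 to 2.34). These were 1 of 5 members each, both intervals include 1, and 0 of 4 were past it for Jag2. For Nrarp in Jag2-positive cells the ratio was 1.16 (0.830 to 1.60). More ligand UMIs in a cell went with no steady lowering of Hes1. It was 855 CPM in cells with 0 ligand UMIs, 855 CPM with 1, 804 CPM (750 to 862) with 2 in 60 cells, and 988 CPM (859 to 1129) with 3 in 9 cells.

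The comparison depended on depth in the shallowest cells. Within quartiles of cells by depth the summed target ratio was 1.30 (1.13 to 1.49) in the shallowest, then 0.993 (0.894 to 1.10), 0.967 (0.900 to 1.04) and 1.0 (0.958 to 1.05) in the deepest. It was 1.16 (1.05 to 1.29) when cells were classed, and levels read, after reduction to 3000 UMIs. None of these summed ratios was below 1 beyond its interval. Multiplexing tags are oligonucleotides put on cells before suspensions are pooled, and 1062 cells had CMO301 and 830 cells CMO302 as their highest tag. In CMO302 cells, however, the Hes1 ratio was 0.945 (0.894 to 0.998), against 1.03 (0.985 to 1.07) in CMO301 cells. The summed ratio in CMO302 cells was 0.950 (0.899 to 1.003). Classed at 3000 UMIs, the Nrarp ratio was 0.762 (0.152 to 2.36).

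**Figure D2:**
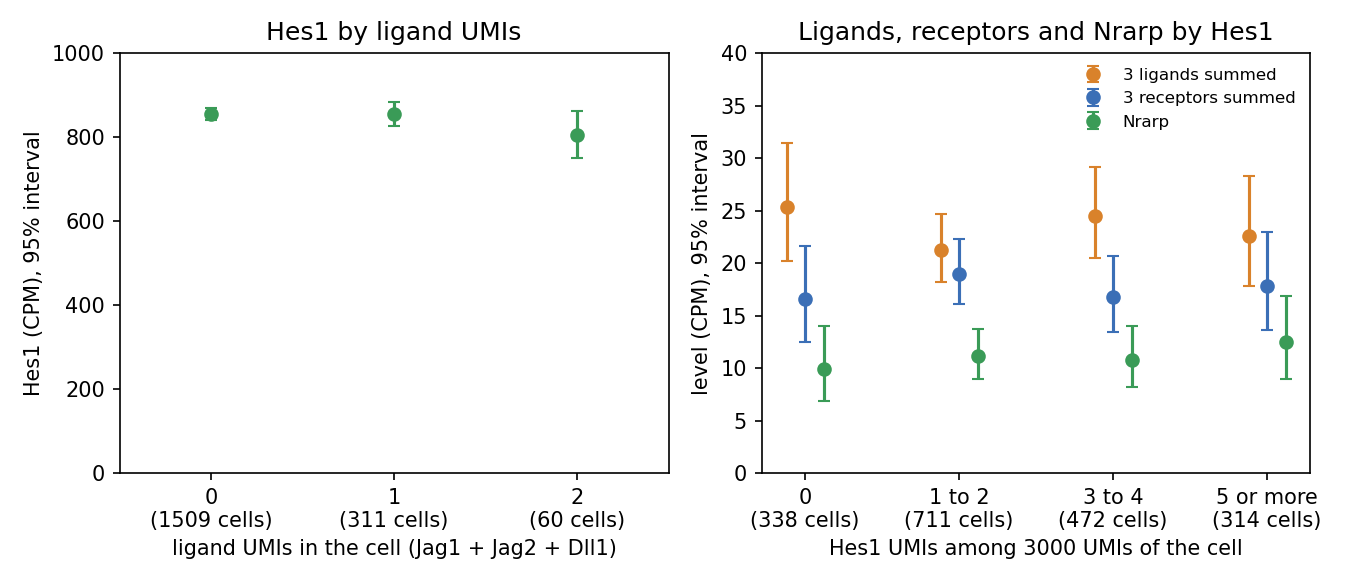
Hes1 level in CPM in cells with 0, 1 or 2 ligand UMIs (left; the 12 cells with more are not drawn), and summed ligand, summed receptor and Nrarp levels in CPM by Hes1 class (right), with exact Poisson intervals. Hes1 is at 855, 855 and 804 CPM, and ligands stay between 21.2 and 25.4 CPM from cells with 0 to cells with 5 or more Hes1 UMIs among 3000.

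Ligand levels were also read by Hes1 class. In the 1743 cells with a Hes1 UMI the ligands together were 22.9 CPM, against 32.8 CPM in the 149 cells without, a ratio of 0.699 (0.477 to 1.06). Jag1 was 3.43 CPM against 8.21 CPM from 7 UMIs, a ratio of 0.417 (0.192 to 1.08), and Jag2 was 16.0 against 23.5 CPM, 0.681 (0.434 to 1.13). Dll1 was 3.53 CPM against 1.17 CPM from 1 UMI, 3.01 (0.522 to 121). All of these intervals include 1, and the cells without a Hes1 UMI were shallower, with a median of 5213 UMIs against 8936. Next, cells reduced to 3000 UMIs were classed by their Hes1 count, with levels read from all their UMIs. The ligands together were 25.4 CPM in 338 cells with 0 Hes1 UMIs at that depth, 21.2 CPM in 711 cells with 1 to 2 UMIs, 24.5 CPM in 472 cells with 3 to 4 and 22.6 CPM in 314 cells with 5 or more. The ratio of the highest class to the lowest was 0.891 (0.644 to 1.23). Receptors were 16.6, 19.0, 16.8 and 17.8 CPM in the same order. Nrarp, the other target, was 9.97, 11.2, 10.8 and 12.5 CPM, a ratio of 1.25 (0.775 to 2.04), so a joint difference of the 2 targets was not detectable at this depth.

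Pairs of members were found together about as often as cells of like depth would give. Expected numbers were summed over 10 depth bins. Ligand and target were found together in 362 cells against 363 expected, where at most 383 could show both because nearly all cells had a target UMI. Read the other way, 21 cells had a ligand UMI and no target UMI, against 19.7 expected (ratio 1.06, 0.659 to 1.63). Of 36 pairs, 17 had an expected number of at least 10, and 0 of these had an interval apart from 1. Of the 17, 7 involve Hes1, and with Hes1 in 92.1% of cells their ratios could reach no more than 1.02 to 1.06, so the other 10 carry the comparison. The ratios ran from 0.677 (0.338 to 1.21) for Notch2 with Notch3 to 1.45 (0.844 to 2.32) for Jag2 with Dll1, with a median of 1.01. Jag2 and Nrarp met in 45 cells against 39.9 expected (1.13, 0.823 to 1.51). Ligand and receptor met in 92 cells against 83.1 expected (1.11, 0.893 to 1.36). At equal depth that last pair met in 15 cells against 7.01 expected (2.14, 1.20 to 3.53). This interval lies above 1, but its expected number is under the minimum of 10 used for the pairs above.

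**Figure D3:**
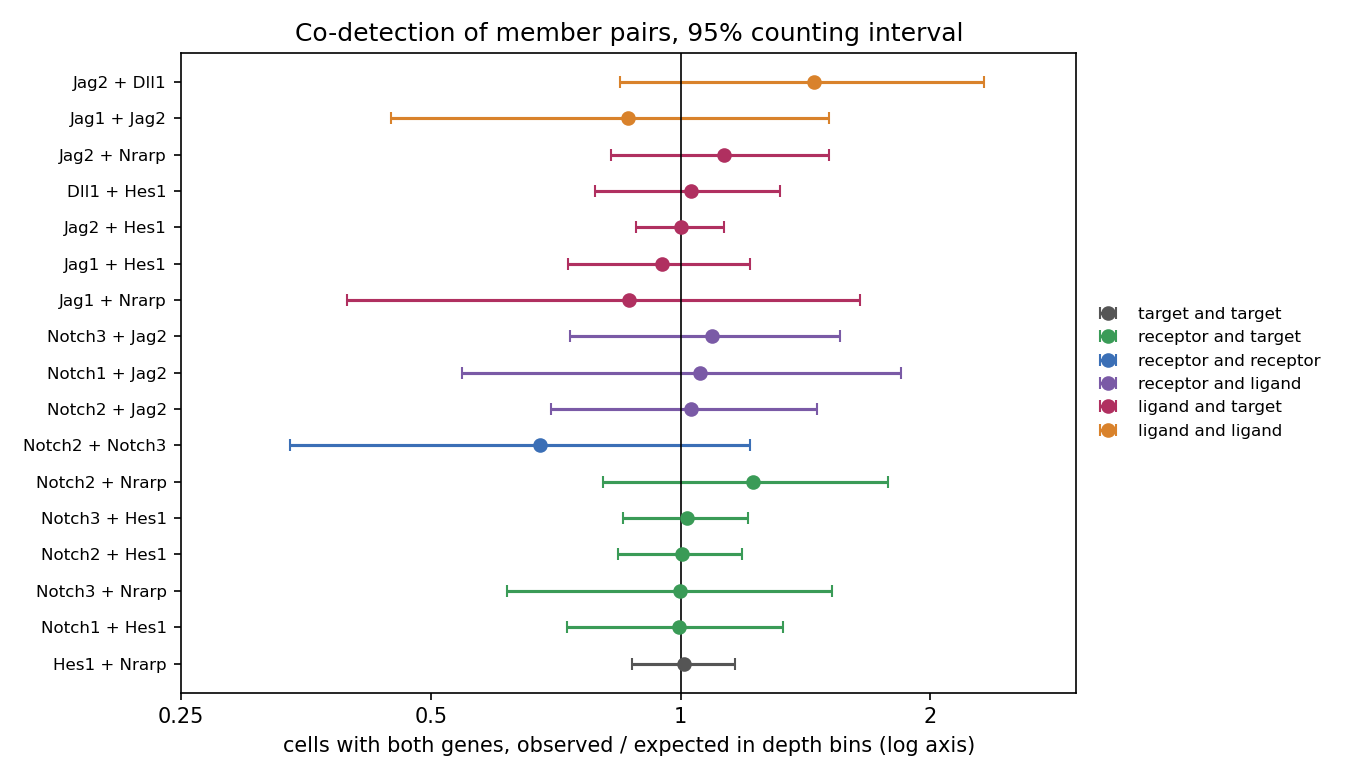
Ratio of observed to expected co-detection for the member pairs with an expected number of at least 10, with intervals for counting error and the depth of the cells taken into account by 10 bins. Points run from 0.677 to 1.45, and every interval includes 1; the 7 pairs with Hes1 could reach no more than 1.02 to 1.06.

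Clustering was made without the members and the pathway genes, and gave 6 clusters, numbered by size. Their leading genes were Sprr1a, 2610528A11Rik and Ly6m in cluster 1 (653 cells), Aox3, Scgb3a1 and Cbr2 in cluster 2 (516), Cxcl2, Cxcl5 and Mgat4c in cluster 3 (307), Psca, Prss22 and 2210011C24Rik in cluster 4 (229), Aspm, Dlgap5 and Knl1 in cluster 5 (124) and Cyba, Reg3g and Gm3776 in cluster 6 (63). No cluster was given a cell type name, since none had enough of the chosen markers among its leading genes. Cluster 5 had 91.9% of its cells called in S or G2/M phase. Cluster 6 held cells with Y-linked UMIs in 52.4%, compared with 0.581% to 1.95% in the other clusters, and 61.9% of its cells were called in S or G2/M.

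Hes1 was highest in cluster 3, at 1004 CPM, and lowest in cluster 6, at 563 CPM. It stood at 724, 950, 961 and 765 CPM in clusters 1, 2, 4 and 5. The cluster 3 level was 1.23 times that of the other cells (1.19 to 1.28). Summed stress genes, described below, were 1.20 times the rest there (1.19 to 1.21). The cluster 6 level was 0.647 times that of the other cells (0.594 to 0.703), the only Hes1 ratio past 1.5-fold among the 6 clusters. The call ended in 2 of 5 other clusterings, where the matched clusters were larger, at 0.813 (resolution 0.3) and 0.804 (1000 variable genes). In clusters 1, 2 and 5, 0 of 5 members with at least 100 UMIs were past it, beside 20.3%, 11% and 17.9% of all genes. It also ended in cells with CMO301 as highest tag, at 0.680 (0.613 to 0.754), and held in those with CMO302, at 0.583 (0.502 to 0.673). Of 5 members with at least 100 UMIs, 1 passed the fold in cluster 6, beside 37.9% of all genes compared. That share includes genes with far fewer UMIs than Hes1, whose ratios carry more counting error. Summed stress genes were 0.451 times the rest in the same cluster (0.436 to 0.466), and their part in the result was not tested. Cells with a Y-linked UMI made up 52.4% of cluster 6, so a different origin of its cells and their state cannot be told apart. Rbpj, the DNA-binding partner of the receptors, was 0.375 times the rest there (0.246 to 0.548). It was 1 of 7 genes past the fold downwards among 31 pathway genes described below, with Furin, Aph1b, Aph1c, Mib2, Numb and Dtx2, and 2, Sox9 and Itch, were past it upwards.

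Receptor and ligand genes differed between clusters as follows. In cluster 3, Notch2 was 11.4 CPM against 6.64 CPM elsewhere, a ratio of 1.72 (1.20 to 2.43), and Notch3 was 10.5 against 6.70 CPM, 1.56 (1.08 to 2.23). These were 2 of 5 members past the fold in that cluster, beside 12.8% of all genes. The calls did not hold in most other clusterings. Notch2 was under 1.5-fold in 3 of 5, at 1.14, 1.09 and 1.39, and Notch3 in 4 of 5, at 1.04, 1.41, 1.29 and 1.40. Cluster 3 was also deep, with a median of 12515 UMIs per cell. There Jag2 was 1.35 times the rest (1.04 to 1.73), the summed ligands 1.39 (1.13 to 1.71) and the summed receptors 1.58 (1.25 to 1.98). Dll1, with fewer than 100 UMIs, was 5.35 against 2.91 CPM, 1.84 (1.06 to 3.10), but 1.17 (0.488 to 2.51) in CMO301 cells and 3.09 (1.38 to 6.88) in CMO302 cells. In cluster 6, Notch1 was 12.8 CPM from 13 UMIs against 2.20 CPM from 42 UMIs elsewhere, a ratio of 5.80 (2.86 to 11), and Dll1 had 0 UMIs. The Notch1 ratio was 7.01 (2.99 to 15.2) in CMO301 cells and 3.63 (0.685 to 12.4) in CMO302 cells. Cluster 6 had the deepest cells, with a median of 14281 UMIs, and Notch1 was 0.463, 1.17, 1.37 and 4.55 CPM in quartiles of all cells from shallow to deep. At 3000 UMIs, 2 of 62 cluster 6 cells had a Notch1 UMI (3.23%, 0.393% to 11.2%). The part of depth in the Notch1 difference was not tested. A different origin of the cluster 6 cells, many with Y-linked UMIs, cannot be told apart from their state here either. Notch1 was also 2.48 times the rest in cluster 5 (1.07 to 5.12), 0.396 times in cluster 1 (0.171 to 0.820) and 0.174 times in cluster 4 (0.00432 to 1.01), from 9, 9 and 1 UMIs. Jag1 was 0.357 times the rest in cluster 5 (0.0424 to 1.34), from 2 UMIs. In cluster 4, Notch2 was 5.16 CPM from 10 UMIs, 0.652 times the rest (0.306 to 1.23), beside 25.7% of all genes past the fold. Jag2 ran from 12.2 CPM in cluster 5 to 20.5 CPM in cluster 3, and Nrarp from 8.86 to 12.9 CPM, with no ratio past 1.5-fold for either in any of the 6 clusters.

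**Figure D4:**
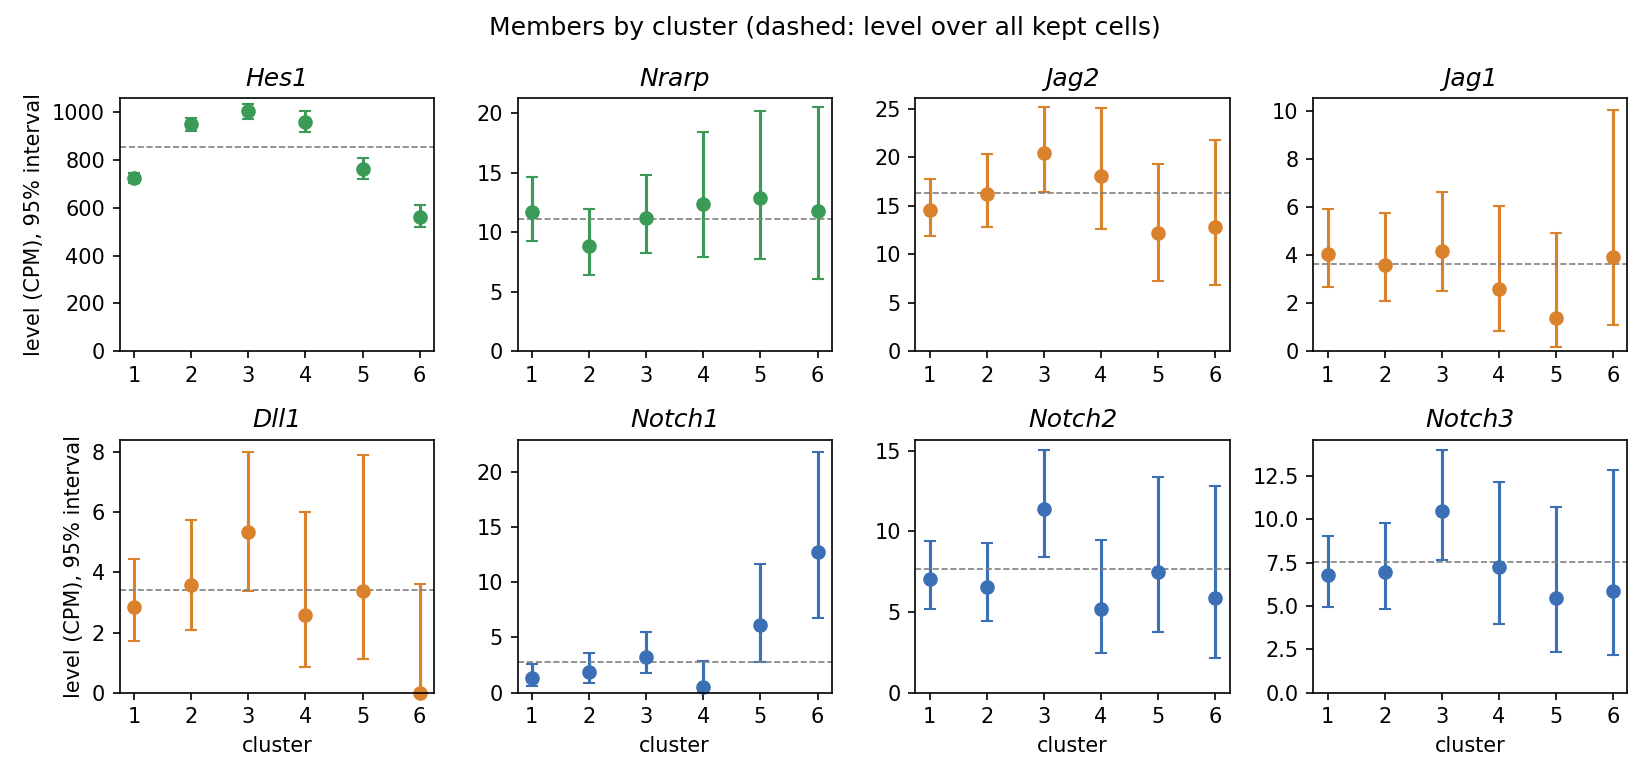
Levels of the 8 detected members in the 6 clusters in CPM, with exact Poisson intervals and a dashed line at the level over all kept cells. Hes1 is lowest in cluster 6 at 563 CPM, Notch1 is highest there at 12.8 CPM, and Notch2 and Notch3 are highest in cluster 3.

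In the 440 cells called in S or G2/M, Hes1 was 773 CPM, against 879 CPM in 1452 cells called in G1, a ratio of 0.880 (0.848 to 0.913). It was 0.956 (0.891 to 1.03) with cells reduced to 3000 UMIs and their phases kept. With phases called again from the 3000 UMIs, which put 613 cells in S or G2/M and 1222 in G1, it was 0.982. The summed stress genes were 0.828 times the G1 level (0.818 to 0.839). Of 5 members with at least 100 UMIs, 0 were past 1.5-fold, beside 8.59% of all genes. The Nrarp ratio was 0.914 (0.648 to 1.27), and 0.877 (0.407 to 1.73) at 3000 UMIs with phases kept. It was 1.65 (0.919 to 2.93) with phases called again and 1.33 (1.005 to 1.74) with cycling cells taken by a UMI of Mki67 or Top2a, so its direction depended on the setting. Notch1, below 100 UMIs, was 5.27 CPM from 24 UMIs against 1.99 CPM from 31, a ratio of 2.65 (1.49 to 4.66). That ratio was 1.26 (0.215 to 5.23) at 3000 UMIs with phases kept and 1.14 (0.245 to 4.48) with phases called again. It was 1.99 (0.970 to 3.91) without cluster 6 and 1.12 (0.337 to 2.93) without clusters 5 and 6.

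The level of Hes1 in a cell went with some of the immediate early and stress genes. Of 3850 genes with at least 500 UMIs, those most like Hes1 by the Pearson correlation of log-scaled levels over 1892 cells were Atf3 (r = 0.526), Fos (0.514) and Fosb (0.439), all transcription factor genes induced within minutes to hours of a stimulus. At equal depth the same correlations were 0.372, 0.339 and 0.331. These cells share 1 library, and the number of dissociations is not given in the labels. The correlation of Hes1 with the members of at least 100 UMIs was between -0.009 and 0.030. Fos stood at 2338 CPM, Atf3 at 1085 CPM and Egr1 at 1004 CPM in the library.

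Cells were also divided into quartiles by their UMIs of 12 such genes (Fos, Fosb, Jun, Junb, Egr1, Atf3, Ier2, Ier3, Dusp1, Zfp36, Hspa1a and Hspa1b) after reduction to 3000 UMIs. Correlations of Hes1 with the single genes of this list at equal depth were uneven. They ran from 0.038 for Hspa1b and 0.044 for Hspa1a to 0.372 for Atf3. Hes1 was 475 CPM in the lowest quartile, 807 and 1005 CPM in the middle ones and 1153 CPM in the highest, 2.43 times the lowest (2.31 to 2.55). Among the other members no ratio of the top to the bottom quartile had an interval apart from 1. Nrarp was 1.07 times its lowest quartile level (0.723 to 1.60), the ligands together 1.16 (0.896 to 1.51) and the receptors together 1.0 (0.735 to 1.36). Single ligands went different ways, with Dll1 at 1.75 (0.908 to 3.47), Jag2 at 1.24 (0.904 to 1.71) and Jag1 at 0.518 (0.236 to 1.08). Within clusters the correlation of Hes1 with the summed stress UMIs at equal depth was 0.363 to 0.559 in clusters 1 to 5 and 0.120 in cluster 6, beside 0.421 in all cells. The part of dissociation in the level of Hes1 was not tested.

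**Figure D5:**
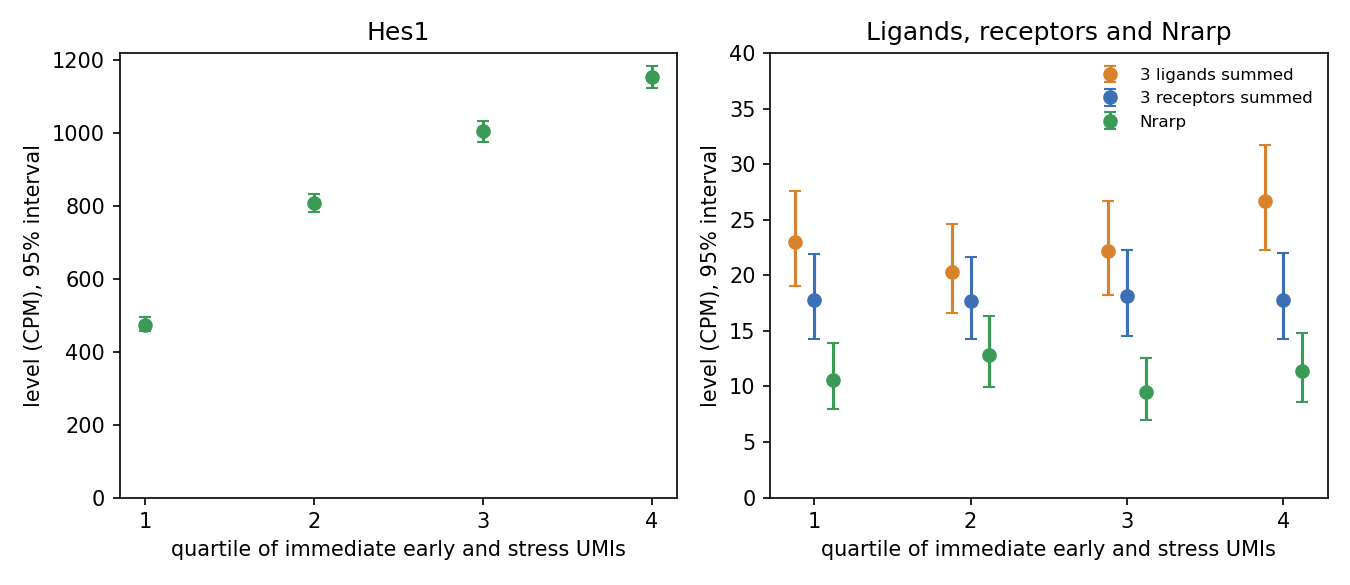
Hes1 (left) and Nrarp, summed ligand and summed receptor levels (right) in CPM by quartile of immediate early and stress gene UMIs, with exact Poisson intervals. Hes1 goes from 475 to 1153 CPM, whereas the top quartile is 1.07 times the bottom one for Nrarp, 1.16 times for ligands and 1.0 times for receptors.

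The question of separation was asked again within these quartiles. Summed targets in ligand-positive over ligand-negative cells were 1.17 (1.07 to 1.28), 0.956 (0.890 to 1.03), 0.975 (0.914 to 1.04) and 0.957 (0.903 to 1.01) times, from the lowest to the highest quartile. All 4 ratios were within 1.5-fold.

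The rest of the pathway was described with a list of 50 genes, of which 31 had at least 100 UMIs and 7 had no UMI. Genes of receptor and ligand cleavage were all 10 above that minimum. The gamma-secretase subunit genes Psenen and Aph1a reached 198 and 48.0 CPM and the protease gene Adam10 reached 33.4 CPM. Among 5 glycosyltransferase genes, whose products add sugars to the receptors, Poglut1 had 10.6 CPM and Rfng 6.71 CPM. In endocytosis and turnover, where 9 of 12 genes were above the minimum, the ubiquitin ligase genes Fbxw7, Mib1 and Itch had 22.8, 22.5 and 21.5 CPM. In the nuclear complex, 6 of 7 genes were above it, with Rbpj at 68.4 CPM and Kdm5a at 42.0 CPM.

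Other target genes were uneven. Ccnd1, Sox9 and Myc, which many other pathways also regulate, had 432, 81.7 and 44.7 CPM, and Hes6 had 31.2 CPM. Hes5, Hey2 and Heyl had 0 UMIs, as did the lineage factor genes Atoh1 and Neurog3, which Hes1 is known to repress, and the ligand-like gene Dlk1. Of the remaining receptors and ligands, Notch4 had 6 UMIs, Dll3 had 12, Dlk2 had 5 and Dll4 had 1. Of the 31 genes above the minimum, 1 was past 1.5-fold upwards in ligand-positive over ligand-negative cells, beside 1.23% of all genes, and 0 downwards, beside 0.647%. The gene was Psen2, a gamma-secretase subunit gene, at 1.53 (1.02 to 2.25). The median log2 ratio of the list was 0.15, beside 0.06 over all genes compared.

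In cluster 3, 8 of these 31 genes were past the fold upwards and 1, Aph1c, downwards at 0.613 (0.344 to 1.03). Among the higher ones were Ccnd1 at 2.21 (2.12 to 2.31), Fbxw7 at 1.84 (1.51 to 2.25), Myc at 1.80 (1.56 to 2.07), Neurl1b at 1.68, Adam17 at 1.68 and Maml2 at 1.61. Upward ratios past 1.5-fold were found for 10.3% of all genes there and downward ones for 2.54%, and the median log2 ratio was 0.39 for the list and 0.17 for all genes. In cluster 4 the list had 0 genes past the fold upwards, beside 2.32% of all genes, and 7 downwards, beside 23.4%. The lowest of the 7 were Numbl at 0.330 (0.106 to 0.789) and Dtx3 at 0.366 (0.132 to 0.814).

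Genes outside the pathway that led in ligand-positive cells rested in part on single cells. Tff1 was 6.07 times the level of ligand-negative cells, but 1 cell of 47183 UMIs held 2441 of its 6172 UMIs, and the ratio was 2.60 (2.44 to 2.78) without that cell. The stomach mucosal genes Gkn2 and Gkn1 went from 4.41 to 1.99 and from 2.62 to 1.29 when the cell with most of each was left out. At equal depth Tff1 had a UMI in 24% of ligand-positive cells (19.8% to 28.7%) and in 23.3% of the others (21.1% to 25.5%). The same shares were 5.6% and 6.37% for Gkn2, and 9.87% and 9.04% for Gkn1, so none of the 3 genes differed in detection. The lowest ratios were those of Gm21818 and B020031M17Rik, for which 1 cell held 98.4% and 96.7% of UMIs, and of the histone gene Hist1h2ae, at 0.527 (0.415 to 0.664). In Dll1-positive cells the chemokine genes led. Cxcl2 was 6.62 times the rest and 3.27 (2.62 to 4.05) without its top cell, Cxcl1 was 2.69 and 1.94 (1.53 to 2.43), and Cxcl5 was 2.51 and 2.69 (2.25 to 3.19). At equal depth Cxcl5 had a UMI in 12.7% of Dll1-positive cells (5.65% to 23.5%) and in 6.77% of the others (5.65% to 8.04%), so that the shares overlap in their intervals. So did those of Cxcl2, at 9.52% (3.58% to 19.6%) and 4.74% (3.80% to 5.84%). For Cxcl1 they were 17.5% (9.05% to 29.1%) and 8.97% (7.68% to 10.4%), also overlapping. The lead was not particular to Dll1. Cxcl2 was highest in Jag2-positive cells too, at 2.73, and Cxcl2 and Cxcl5 led in Notch3-positive cells, at 2.36 and 2.21.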

How the data were processed

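The deposited matrix holds UMI counts per gene and barcode, not normalized by the authors. Cell Ranger 6.1.2 wrote it, per the file headers, and the genome build was GRCm38/mm10, per the submitters' processing notes. A 10x Genomics 3′ kit was used, per the labels' protocols; the annotation used for counting is not given in the sources used here. The 12 multiplexing tags were kept out of all sums, and the labels do not tie them to suspensions, so the matrix was 1 sample.

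Cells were kept with at least 500 genes and at most 20% mitochondrial UMIs, which removed 99 barcodes. Scrublet in scanpy 1.11.5 called 12 doublets (0.634%), which were kept and left out as an alternative. CPM have exact Poisson intervals, shares exact Clopper-Pearson intervals and ratios exact conditional binomial intervals, computed with scipy 1.17.1. Fold comparisons used genes with at least 100 UMIs. Clusters came from 2000 variable genes, 30 components, 15 neighbours and Leiden resolution 0.6 (leidenalg 0.10.2), without member, pathway, cell cycle, sex-linked and mitochondrial genes. Phases were called from scanpy scores. The steps were tested on simulated data.

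Members, lists and tests were chosen with earlier results of these data known. Genes named were all members, the 2 or 3 highest pathway genes in each role and some of those past 1.5-fold, the 3 genes most like a member of at least 500 UMIs, the 3 leading genes of a cluster, and the 3 highest and lowest in ligand-positive cells. The rule asked for every pathway gene past 1.5-fold in a described comparison; those of any-ligand cells and cluster 6 are named, those of clusters 3 and 4 in part, and those of single-ligand classes, Hes1 classes, phases and clusters 1, 2 and 5 are not. The leading genes of Dll1-positive, Jag2-positive and Notch3-positive cells and the pathway genes given in clusters were singled out after their values were seen. Alternatives were other cell filters, doublets left out, each tag alone, means over cells, reduced depth, depth quartiles and other clusterings. Values of some pathway genes are not reported here.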

Additional observations from a re-analysis of the deposited data

How the results depend on the processing

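Over 25 results and 28 alternative settings, 228 values were computed. For the summed target ratio and the Hes1 ratios by phase and in clusters 3 and 6, 19 values stayed within counting error of the one given and 20 moved beyond it. Ligand and target co-detection stayed in 10 of 10. In the analysis given it could not exceed 1.05 times its expected number, so a move upwards could hardly show. For the members' levels, the other single-gene ratios and the co-detection of Jag2 with Nrarp, 159 stayed and 20 moved. The summed target ratio of ligand-positive over ligand-negative cells was 0.950 in CMO302 cells, 1.04 with means over cells, 1.16 at 3000 UMIs, 1.30 and 0.967 in depth quartiles 1 and 3, and 1.17, 0.956 and 0.957 in stress quartiles 1, 2 and 4. The Hes1 ratio of S or G2/M over G1 was 0.928 over all barcodes, 0.959 in CMO301 cells, 0.767 in CMO302 cells, 0.919 without cluster 6, 0.931 with means over cells, 0.982 at 3000 UMIs with phases called again, 0.956 at 3000 UMIs with phases kept and 0.964 with cycling cells taken by Mki67 or Top2a. The Hes1 ratio of cluster 3 was 1.35 at resolution 0.3 and 1.29 with 3000 variable genes, and that of cluster 6 was 0.813 at resolution 0.3 and 0.804 with 1000 variable genes, where the matched clusters held 147 and 162 cells. Both cluster 6 values are within 1.5-fold, so that call ended there, and the calls of Notch2 and Notch3 in cluster 3 ended in 3 and 4 of 5 clusterings; the cause was not tested.

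The stress quartiles, the omission of clusters 5 and 6 and the 3000 UMIs with phases kept were chosen after seeing the data. Means over cells gave no co-detection value. No paired analysis was possible because the series gave a single library here. Depth limits the 8 members other than Hes1, whose highest count in a cell was 2 to 4 UMIs among those detected.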

Other observations

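Cells positive for Notch1 or Jag1 seemed rich in the pit cell gene Tff1, and this turned with 1 cell. Tff1 was 14.2 times the level of other cells in the 47 Notch1-positive cells and 0.127 (0.0788 to 0.195) without the 1 cell that held 2441 of its 6172 UMIs. In the 71 Jag1-positive cells it went from 12.4 to 0.292 (0.220 to 0.380). Gsta1, a glutathione transferase gene, stayed higher in Notch1-positive cells, at 10.1 times and 6.04 (5.45 to 6.68) without its top cell, which held 370 of 2645 UMIs. Gsta1 was 58.3 times the other cells in cluster 6, where Notch1 was highest. These genes were picked for their ratios, so the ratios are descriptions.

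The 149 cells without a Hes1 UMI made up 2.61% of cluster 3 and 16.1% of cluster 5. The summed stress genes were 2.30 times higher in Hes1-positive cells (2.22 to 2.39).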
